A study of Homo sapiens with 3 samples.

Results

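The replication-dependent histone genes are the genes that make most of the histone protein of a dividing cell, and nearly all of them lie in clusters on chromosomes 6 and 1. Their mRNA expression was compared among 3 arrays of PANC-1 cells. The members were found by symbol, with no measured value in the rule, as every gene whose current symbol is H1-1 to H1-6, or starts with H2AC, H2BC, H3C or H4C and ends in a number. RefSeq names 69 such genes, and 65 of them matched at least 1 of the 25705 named probes of the array, which together stand for 19699 genes. The 65 members comprised 6 linker H1 genes, 15 H2A genes, 18 H2B genes, 12 H3 genes and 14 H4 genes. In RefSeq, 54 of them are on chromosome 6, 10 on chromosome 1 and 1, H4C16, on chromosome 12. No probe matched H2AC11, H2AC18, H3C14 and H4C14, which were not analysed here.

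PANC-1 is an established human pancreatic cancer cell line. The control label names no agent, and the other cells were treated for 24 h with cantharidin or okadaic acid (OA), compounds that inhibit protein phosphatase 2A. By the sample labels both agents were given at 20 µM, although the shared treatment note gives that dose in wording that leaves OA open. Total RNA of each group was labelled with Cy3 and hybridised to 1 Agilent array, so no difference below has a replicate check, no test across arrays was possible, and all values are descriptions of 3 arrays.

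Histones H2A, H2B, H3 and H4 form the protein core around which DNA is wound, and linker histone H1 sits on the DNA between cores. Each core histone has many gene copies that encode nearly the same protein. These and the linker genes are transcribed mainly in S phase, when new DNA has to be packed. Their mRNAs carry no introns and mostly end in a stem-loop in place of a poly(A) tail, and the stem-loop binding protein SLBP governs how they are processed, translated and degraded. In bulk RNA, fewer cells in S phase and less histone mRNA per cell cannot be told apart.

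Promoters of the members are shown first, by family. A promoter window held the 250 bases before a gene's start in RefSeq (GRCh38.p14), and 64 genes of the naming rule had 68 windows, 60 of these genes being on the array. H4C3 had no window. The octamer, CCAAT and TATA motifs were counted as exact letters on both strands, none of which contains another. The octamer ATTTGCAT, which binds the OCT1 factor in H2B promoters, was in 27 of the 68 windows (39.7%), against 1.63% of all 35116 windows in the table. It was in 15 of 20 H2B and 11 of 16 H2A windows, in 1 of 13 H3 windows, and in 0 of the 6 H1 and 0 of the 13 H4 windows. CCAAT was in 58 of the 68 windows (85.3%), against 32.0% of all windows. Each window of the H1, H2A, H2B and H3 families held it, but 3 of the 13 H4 windows did (23.1%). The TATA box letters TATAAA were in 45 of the 68 windows (66.2%), against 10.7% of all windows, and were found in 3 of 6 H1, 12 of 16 H2A, 14 of 20 H2B, 9 of 13 H3 and 7 of 13 H4 windows. Neighbouring H2A and H2B genes share much of their windows, so these counts are not of independent sequences. A match is a string of letters and not a shown binding site.

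The stretches below, on build GRCh38.p14 and read 5′ to 3′ towards the gene's start, show the genes on which the results turned, with the 3 motifs in capitals. H2BC21 (chr1:149886683-149886932, minus strand) had the largest fall of the H2B genes, and its stretch reaches just past the start of H2AC20, which is read the other way. H2AC16 (chr6:27865067-27865316, plus strand) fell under cantharidin and rose under OA. H2BC9 (chr6:26251454-26251613, plus strand) is a bright H2B gene, with CCAAT and the octamer close together. H4C2 (chr6:26027284-26027443, minus strand) and H4C8 (chr6:26285535-26285694, minus strand) are H4 genes that moved in opposite directions. H1-2 (chr6:26056471-26056630, minus strand) is a linker gene that was higher under cantharidin.
H2BC21: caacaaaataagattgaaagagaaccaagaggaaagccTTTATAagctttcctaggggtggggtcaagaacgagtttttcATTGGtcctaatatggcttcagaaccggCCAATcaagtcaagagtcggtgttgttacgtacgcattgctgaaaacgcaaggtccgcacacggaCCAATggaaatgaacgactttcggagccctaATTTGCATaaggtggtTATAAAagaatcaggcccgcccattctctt
H2AC16: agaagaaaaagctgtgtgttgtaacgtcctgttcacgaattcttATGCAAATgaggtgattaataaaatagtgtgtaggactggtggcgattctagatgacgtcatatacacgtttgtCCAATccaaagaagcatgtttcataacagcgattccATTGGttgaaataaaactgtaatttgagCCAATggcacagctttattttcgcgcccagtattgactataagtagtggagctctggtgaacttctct
H2BC9: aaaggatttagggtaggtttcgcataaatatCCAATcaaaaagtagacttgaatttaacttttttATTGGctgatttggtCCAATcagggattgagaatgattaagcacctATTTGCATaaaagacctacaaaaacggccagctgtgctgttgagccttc
H4C2: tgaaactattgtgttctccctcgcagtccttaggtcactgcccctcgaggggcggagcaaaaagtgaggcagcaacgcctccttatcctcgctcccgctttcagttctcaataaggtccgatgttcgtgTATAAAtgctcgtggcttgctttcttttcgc
H4C8: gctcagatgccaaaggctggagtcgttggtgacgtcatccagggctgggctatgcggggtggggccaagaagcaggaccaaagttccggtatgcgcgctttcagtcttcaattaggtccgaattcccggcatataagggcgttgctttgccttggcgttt
H1-2: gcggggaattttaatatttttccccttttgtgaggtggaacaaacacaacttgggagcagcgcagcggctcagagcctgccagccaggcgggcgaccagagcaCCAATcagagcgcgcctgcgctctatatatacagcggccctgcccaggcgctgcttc
In the H2BC21 stretch the octamer began 46 bases before the start and TATAAA 30 bases before it, with CCAAT beginning 77, 142 and, on the opposite strand, 170 bases before it. The H2BC9 octamer began 49 bases before the start. The octamer of H2AC16 was on the opposite strand, 206 bases before the start. The H4C2 stretch held TATAAA 31 bases before the start and no CCAAT, and that of H4C8 held none of the 3 motifs. In H1-2, CCAAT began 57 bases before the start.

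Each array carried 1 spot for each histone probe. Without flagged spots 34041 probes remained, of which 23071 to 25103 were well above background on an array. Values below are processed spot intensities, followed by log2 differences. Before these were taken, every array was divided by its own 75th percentile, an intensity of 784 for control, 713 for cantharidin and 936 for OA. The lowest intensity of a probe well above background was 35.0 for control, 21.9 for cantharidin and 58.0 for OA. Replicate spots of 1 probe on 1 array had a median SD of 0.07 to 0.10 (log2), and of 0.28 to 0.30 below an intensity of 100, which measures spotting and scanning but not culture. The epithelial markers KRT7, KRT8, KRT18, KRT19 and EPCAM and the mesenchymal marker VIM were well above background on all 3 arrays, and CDH1 was so on the control array alone. Of 9 markers of other pancreatic, blood or stromal cells, PECAM1 and CPA1 were not well above background on any array, COL1A1 was so on the control array alone, and PTPRC, CD3E, COL3A1, PRSS1, INS and GCG read between 60.2 and 791.9. The part of such signals in the histone values was not tested. Of the 65 histone genes, the control array detected 61 well above background and each treated array 58. H1-6 and H2BC1, genes known from the male germ line, and H4C16 were not well above background on any array.

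On the cantharidin array more of the histone genes were lower than higher against control, and on the OA array most of them lay within 1.5-fold of control. A gene was counted as risen or fallen past 1.5-fold, and was compared where either of the 2 arrays showed it well above background. Under cantharidin, 34 of 62 histone genes compared fell (54.8%) and 13 rose, and over all 16644 genes compared 34.1% fell and 27.5% rose. The median log2 difference was -0.61 for histone genes and -0.16 for all genes. Under OA, 10 of 61 fell (16.4%) and 17 rose (27.9%), against 28.8% and 28.1% of 16166 genes. The share of risen histone genes under OA was thus near that of all genes. The medians under OA were 0.11 for histone genes, which turned to -0.01 with median scaling, and 0.01 for all genes. Where a dim signal was replaced by the lowest detectable one, the counts were 34 fallen and 12 risen under cantharidin, and 8 fallen and 17 risen under OA. Both comparisons use the same control array, so no agreement in direction between the agents is read as a result, and the values of each comparison are given side by side. Under cantharidin the log2 differences of single histone genes spanned -3.16 to 2.86, and under OA -1.62 to 2.86.

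**Figure D1:**
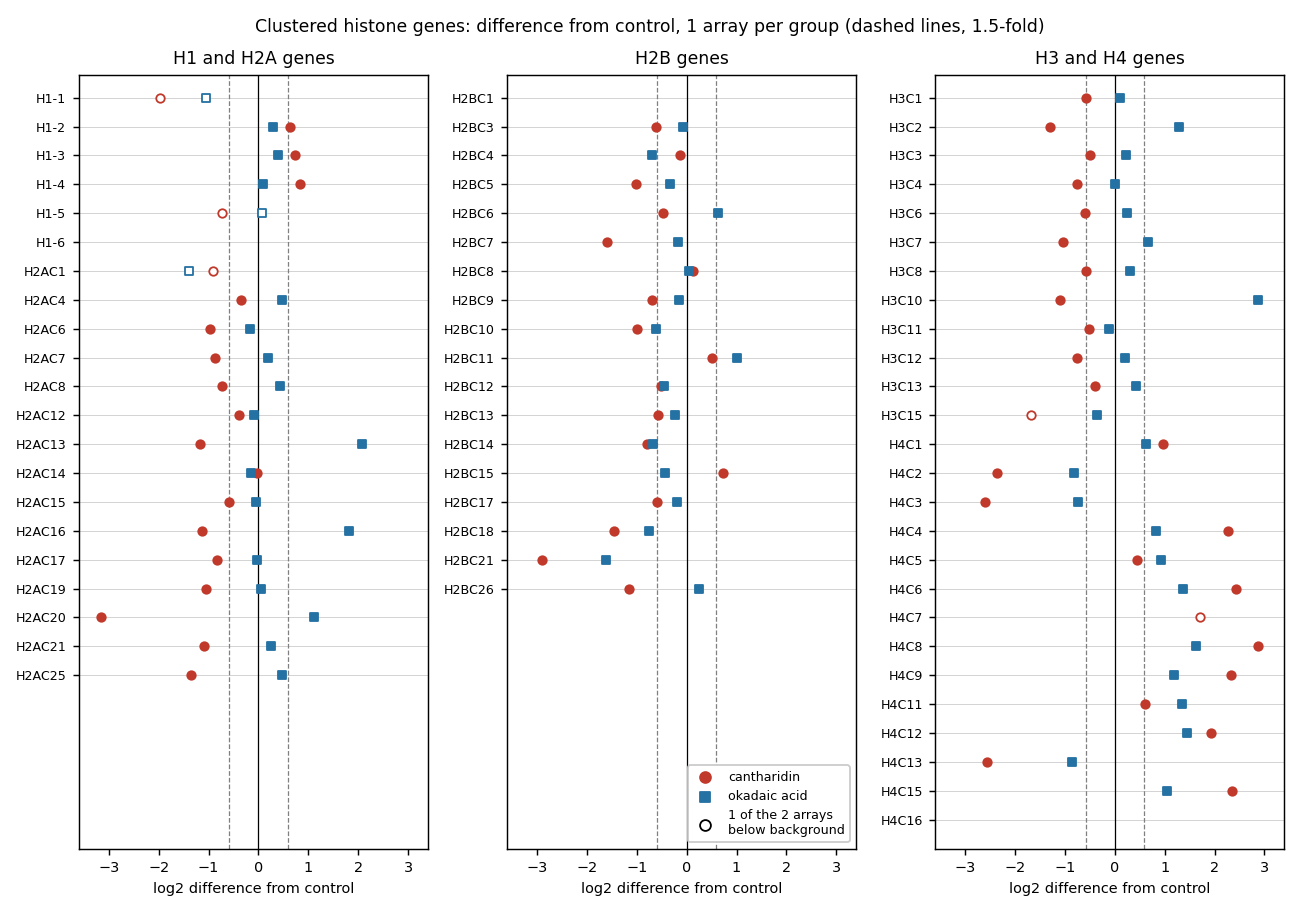
Log2 difference from control (x axis) of each of the 65 histone genes (y axis, by family), with 1 point per agent, dashed lines at 1.5-fold and open points where 1 of the 2 arrays was not well above background. Under cantharidin the 15 H2A and 12 H3 genes sit left of 0 and most H4 genes right of it, and under OA points of most genes lie between the dashed lines. Genes with no point were not well above background on either array compared.

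Of the core histones, 12 of 15 H2A genes, 10 of 17 H2B genes and 7 of 12 H3 genes fell, with medians of -0.92, -0.62 and -0.67 (log2), and 1 gene of these families, H2BC15, rose. For H4, 9 of 13 genes rose and 3 fell, with a median of 1.70. That median is the value of H4C7, dim on the control array, and became 0.96 with its control signal raised to the lowest detected one. Of the linker genes 3 of 5 rose and 2 fell, with a median of 0.64. Under OA, 9 of 12 H4 genes rose and 3 fell, with a median of 0.99. The H1, H2A and H3 medians under OA were 0.09 (-0.03 with median scaling), 0.20 and 0.23, with 0, 3 and 3 genes risen and 1, 1 and 0 fallen. The fallen pair, H1-1 and H2AC1, was below detection on the OA array, so no fold can be given for either. Among H2B genes 2 of 17 rose and 5 fell under OA, with a median of -0.23 that turned to 0.02 without scaling. Over all genes compared, 34.1% fell and 27.5% rose under cantharidin, and 28.8% fell and 28.1% rose under OA. The share of H2B genes fallen under OA (29.4%) and of H3 genes risen (25.0%) were near those of all genes. No test of a difference between families was possible with 1 array a group. The 10 genes on chromosome 1 had a median of -1.25 under cantharidin, with 8 fallen and 1 risen, and the 52 compared on chromosome 6 had a median of -0.59, with 26 fallen and 12 risen. Under OA those medians were 0.25 and 0.09. The linker genes all lie on chromosome 6, as do most H4 genes, so chromosome and family cannot be told apart in these medians.

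Among the linker histones, which bind the DNA between nucleosome cores, the 3 bright genes rose under cantharidin and stayed within 1.5-fold under OA. H1-2 had intensities of 53923 (control), 76420.4 (cantharidin) and 78845 (OA), a log2 difference of 0.64 under cantharidin and 0.29 under OA. Its cantharidin difference ran from 0.50 to 0.73 over the processing settings, short of 1.5-fold at the low end. H1-3 read 2431, 3695 and 3795 on the same arrays, with differences of 0.74 and 0.39. H1-4 read 2755, 4473 and 3506, with differences of 0.84 and 0.09. For all 3, the control array was thus the lowest on the scaled values. H1-1 read 46.6 on the control array and was not well above background at 10.7 and 26.9 on the treated arrays. It was at least 1.93-fold lower under cantharidin, and no fold can be given under OA. H1-5 was likewise detected on the control array alone, at 53.3, and was at least 1.66-fold lower under cantharidin.

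H2A genes, whose product pairs with H2B in the nucleosome core, had negative differences throughout under cantharidin, although that of H2AC14, at -0.02, was within the spot noise. H2AC20 had the largest fall of all members. It read 719.8 in control cells, 72.9 under cantharidin and 1857 under OA, which was 8.97-fold lower under cantharidin (log2 -3.16) and 2.16-fold higher under OA (log2 1.11). H2AC13 and H2AC16 had the same order of arrays, cantharidin lowest and OA highest. H2AC13 read 169.7, 68.3 and 857, with log2 differences of -1.18 under cantharidin and 2.08 under OA. H2AC16 read 169, 70.4 and 715, with differences of -1.13 and 1.82. Other H2A genes fell under cantharidin and stayed close to control under OA. The bright gene H2AC7 read 43005, 21434 and 58965, with differences of -0.87 and 0.20. H2AC21, on chromosome 1, read 24912, 10626 and 35550.5, with differences of -1.09 and 0.26. H2AC19 read 7935, 3484 and 9873, with differences of -1.05 and 0.06. In these 3 genes the control and OA arrays lay close together on the scaled values and the cantharidin array lay lower. H2AC25, a dim gene, read 96.7, 34.4 and 161 and was 2.56-fold lower under cantharidin. H2AC6, H2AC8, H2AC15 and H2AC17 also fell, by 0.60 to 0.98 on the log2 scale. H2AC4, H2AC12 and H2AC14 stayed within 1.5-fold under both agents. H2AC1, a gene known from the testis, read 45.2 on the control array and was not well above background on either treated array. It was at least 1.88-fold lower under cantharidin, with no fold to be given under OA.

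H2B genes split more evenly. The largest fall was that of H2BC21, on chromosome 1, which had intensities of 2004 (control), 244 (cantharidin) and 777 (OA). It was 7.48-fold lower under cantharidin (log2 -2.90) and 3.08-fold lower under OA (log2 -1.62), the largest fall of any histone gene under OA. H2BC18, H2BC10 and H2BC14 also fell under both agents. H2BC18 read 6291, 2071 and 4428, with log2 differences of -1.46 and -0.76, and its other probes went the opposite way, as given below. H2BC10 read 21656, 9872 and 16894, a 1.99-fold fall under cantharidin and a 1.53-fold fall under OA. H2BC14 read 20025, 10552 and 14890.5, with differences of -0.79 and -0.68. In each of these genes the control array was the highest on the scaled values. Fallen under cantharidin and within 1.5-fold under OA were H2BC3, H2BC5, H2BC7, H2BC9, H2BC17 and H2BC26. Of these H2BC7 changed most, reading 226, 67.9 and 239 (3.03-fold lower under cantharidin). H2BC26 read 203, 83.4 and 288, with differences of -1.15 and 0.25. H2BC9, shown by its promoter above, read 22054, 12424 and 23590.4, with differences of -0.69 and -0.16. Some H2B genes went the other way. H2BC15 rose under cantharidin, reading 1933, 2898 and 1719, with differences of 0.72 and -0.43. Its cantharidin difference ran from 0.56 to 0.79 over the processing settings, short of 1.5-fold at the low end. H2BC11 read 4081, 5268 and 9757, a difference of 0.51 under cantharidin and a 2.003-fold rise under OA. H2BC6 read 157, 103 and 291, with -0.48 under cantharidin and a rise of 0.63 under OA. H2BC4 fell under OA alone. H2BC8, H2BC12 and H2BC13 stayed within 1.5-fold under both agents.

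H3 genes, whose product pairs with H4 in the centre of the core, also had negative differences throughout under cantharidin. By the probe with the highest mean signal H3C10 rose most under OA of all histone genes (another H2BC18 probe rose by 2.98). It read 699 in control cells, 298 under cantharidin and 6064 under OA, and was 2.13-fold lower under cantharidin (log2 -1.09) and 7.27-fold higher under OA (log2 2.86). H3C2 and H3C7 had the same order of arrays as H3C10. H3C2 read 981, 364 and 2840.5, with log2 differences of -1.29 and 1.28. H3C7 read 927, 409 and 1751, with differences of -1.04 and 0.66. The brightest H3 probes changed less. H3C3 read 34432, 22286 and 48208, with differences of -0.49 and 0.23. H3C13 read 29382, 20310.1 and 46904, with differences of -0.39 and 0.42. Neither gene passed 1.5-fold under either agent, with the cantharidin array the lowest and the OA array the highest in both. H3C4, H3C6 and H3C12 fell by 1.69-fold, 1.504-fold and 1.68-fold under cantharidin and stayed within 1.5-fold under OA. H3C15 was not well above background on the cantharidin array, at 20.7, and was at least 3.04-fold lower there than on the control array, at 73.2. H3C1, H3C8 and H3C11 stayed within 1.5-fold. H3C6 at 1.504-fold and H3C1 at 1.497-fold lower lay on either side of the threshold, a gap far smaller than the spot noise.

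H4 genes took opposite directions within the family. Those that fell were H4C3, H4C13 and H4C2. H4C3 had intensities of 36735 (control), 5480.4 (cantharidin) and 26308 (OA), and was 6.09-fold lower under cantharidin (log2 -2.61) and 1.67-fold lower under OA (log2 -0.74). H4C13 read 5397, 834 and 3542, with log2 differences of -2.56 and -0.86. H4C2 read 3211, 568 and 2174, with differences of -2.36 and -0.82. In these genes the control array was the highest and the cantharidin array the lowest. Among the H4 genes that rose, H4C8 rose most. H4C8 read 219, 1447 and 805, and was 7.26-fold higher under cantharidin (log2 2.86) and 3.08-fold higher under OA (log2 1.62). H4C6 read 158, 777 and 483, with differences of 2.44 and 1.36. H4C15, on chromosome 1, read 272, 1264 and 674, with differences of 2.35 and 1.05. The control array was the lowest of the 3 in these genes and the cantharidin array the highest. H4C9 read 132, 605 and 359, with differences of 2.34 and 1.19. H4C4 read 183, 802 and 389, with differences of 2.27 and 0.83, and its other probe fell, as given below. H4C12 read 487, 1692 and 1585, with differences of 1.94 and 1.45. On these probes the genes had the same order of arrays, and another H4C12 probe differed, as given below. H4C11 differed in order, with the OA array the highest, reading 549, 763 and 1656, with differences of 0.61 and 1.34. H4C1 read 113 on the control array and rose by 0.96 and 0.62. H4C5 rose under OA alone, by 0.93, with 0.44 under cantharidin. H4C7 was well above background on the cantharidin array alone, at 44.1, which was at least 1.39-fold above control and so short of 1.5-fold by this bound.

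By the probe with the highest mean signal, the 3 fallen H4 genes read between 3211 and 36735 on the control array. The 8 that rose under cantharidin on detected spots read between 113 and 549 there. The other H4C4 probe read 501 on the control array and fell by 1.66 under cantharidin. The other H4C13 probe, not well above background at 27.1, was at least 1.07-fold higher under cantharidin. Other probes of H4C1 and H4C12 read 51.6 and 654 in control, with differences of 0.63 and 0.52. All these are spot intensities, which depend on the probe as well as on the transcript. The part of brightness in the direction was not tested. Copies of H4 encode nearly the same protein, but how alike their transcripts are was not examined. The probe sequences are not used here, and how far a probe also binds other copies was not tested.

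**Figure D2:**
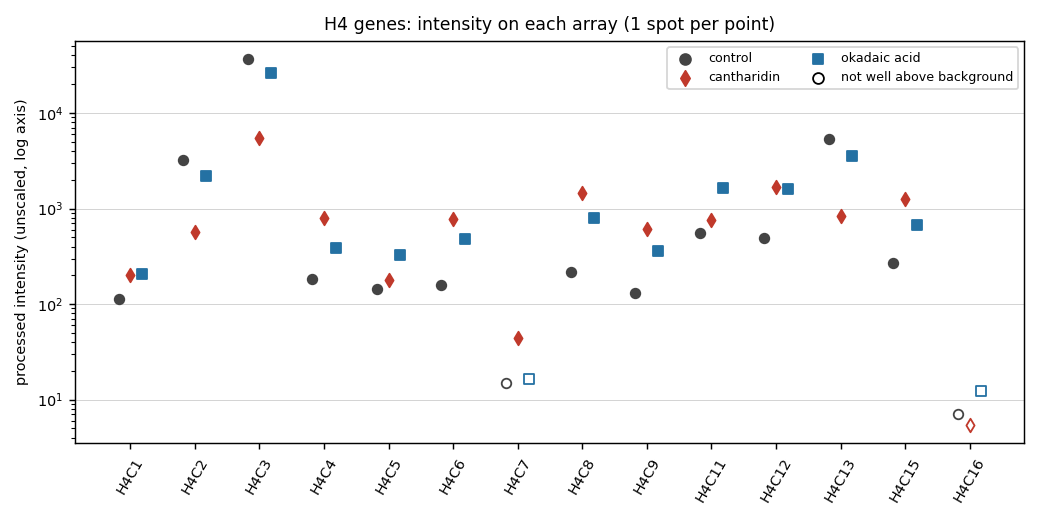
Processed spot intensity (log y axis, not scaled between arrays) of the 14 H4 genes (x axis) on each array, with 1 spot per point and open points where the spot was not well above background. The control point is the highest for H4C2, H4C3 and H4C13 and the lowest for the others but H4C16, whose 3 points are all open.

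In H2AC13, H2AC16, H2AC20, H3C2, H3C7 and H3C10 a fall under cantharidin stood beside a rise under OA. They were 6 of the 61 members compared under both agents, and over all genes 581 of 16049 went past 1.5-fold in opposite directions. The comparisons share the control array, and nothing is read from these counts. The values of the 6 genes are given above, and whether the agents differ in these genes was not tested. H3C7 had the smallest differences of the group, at -1.04 and 0.66, and H3C10 the largest rise. Across processing settings the OA difference of H3C7 ran from 0.54 to 0.92, short of 1.5-fold at the low end. Its place in this group therefore depends on the setting. Among members past 1.5-fold in a single comparison, H1-2, H1-3, H1-4 and H2BC15 rose under cantharidin, and H2BC6, H2BC11 and H4C5 rose under OA. The rises of H1-2 and H2BC15 did not pass 1.5-fold in every processing setting, as given above.

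The 2 treated arrays were also compared directly, which does not use the control array. Between OA and cantharidin, 32 of 59 histone genes compared were at least 1.5-fold higher under OA (54.2%) and 8 were lower (13.6%), where 29.5% and 22.3% of 16200 genes were. The median was 0.70 for histone genes and 0.13 for all genes. H3 and H2A genes were mostly higher under OA, in 11 of 12 and 11 of 14 genes, with medians of 0.85 and 1.09. Among H2B genes 6 of 17 were higher and 1 was lower, with a median of 0.50. H2AC20 had the largest difference, 19.4-fold higher under OA (log2 4.28), followed by H3C10 at 15.5-fold (log2 3.95). H2AC13 was 9.56-fold higher (log2 3.26), H2AC16 7.72-fold (log2 2.95) and H3C2 5.94-fold (log2 2.57). These genes read between 68.3 and 364 on the cantharidin array, where spot noise was larger below 100. Among H4 genes 4 of 13 were higher under OA and 6 lower, with a median of -0.49 that turned to 0.04 with the median over a gene's probes. The 4 higher ones were H4C3, H4C2 and H4C13, which had fallen most under cantharidin, and H4C11. Lower under OA than under cantharidin were H4C4 (log2 -1.44, but 1.13 on its other probe), H4C15 (-1.30), H4C8 (-1.24), H4C9 (-1.15) and H4C6 (-1.08). H4C7, the sixth, was detected under cantharidin alone, and no fold can be given for it. H2BC15 (log2 -1.15) and the linker gene H1-4 (-0.75) were the other members lower under OA.

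Some members are known to make polyadenylated mRNA besides the stem-loop form. The priming method of the labelling is not given in the sources used here, so which form a probe reads is not known here. Of the 6 such members listed, 3 fell and 1 rose under cantharidin (median -0.75), and 2 fell and 0 rose under OA (median -0.40). Of the other members, 31 of 56 fell and 12 rose under cantharidin (median -0.61), and 8 of 55 fell and 17 rose under OA (median 0.21). The shares fallen and risen over all genes compared were 34.1% and 27.5% under cantharidin, and 28.8% and 28.1% under OA. H1-2 and H2BC21, described above, were the extremes of the 6 genes. H2BC12 read 44647 in control cells, 28252 under cantharidin and 38786 under OA, with differences of -0.52 and -0.46. H2BC5 read 10844, 4852 and 10278, with differences of -1.02 and -0.33. H2BC4 read 5084, 4212 and 3752, with differences of -0.13 and -0.69. Of these genes H2BC5 fell under cantharidin, H2BC4 fell under OA, and H2BC12 passed 1.5-fold under neither agent on this probe. On its brighter probe H2AC6 read 4959, 2287 and 5233, and fell under cantharidin (-0.98) but not under OA (-0.18). Its other probe, at 68.1 on the control array, differed by -0.18 under cantharidin. Under OA that probe was not well above background and was at least 1.40-fold lower.

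Different probes of the same gene did not always move together. Of the 65 members, 55 had 1 probe and 10 had several, and the values above are of the probe whose mean signal was the highest. The 2 probes of H2BC21 differed from control by nearly the same amount, by log2 -2.90 and -2.88 under cantharidin and -1.62 and -1.78 under OA. Those of H3C10 also moved together, by -1.09 and -0.86 under cantharidin and 2.86 and 1.78 under OA. H4C1 rose on both of its probes under both agents. The other H2BC12 probe was 1.56-fold lower under cantharidin (log2 -0.64), past the threshold that its brighter probe missed at 1.44-fold, and differed by -0.37 under OA. The other H4C12 probe read 654, 851 and 2061, with a difference of 0.52 under cantharidin, short of 1.5-fold, and a rise of 1.40 under OA. On it the OA array was the highest, whereas on the H4C12 probe described above the cantharidin array was. In H2BC18 and H4C4, probes went past 1.5-fold in opposite directions. The H2BC18 probe with the highest mean signal fell under both agents, whereas another read 523 in control cells, 3313 under cantharidin and 4916 under OA, with differences of 2.80 and 2.98. Its remaining probe was well above background on the OA array alone, at 288, and was there at least 6.89-fold higher than control. In H4C4, the probe that rose under cantharidin (2.27) stood beside another that read 501, 144 and 417 and fell by 1.66 under cantharidin, with -0.52 under OA. The H2AC17 probes fell alike under cantharidin, by 0.84 and 0.69, but under OA they differed, at -0.03 and 2.05. Which transcripts of these genes, or of their near copies, each probe reads was not tested. The direction of H2BC18 and H4C4 is therefore uncertain.

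**Figure D3:**
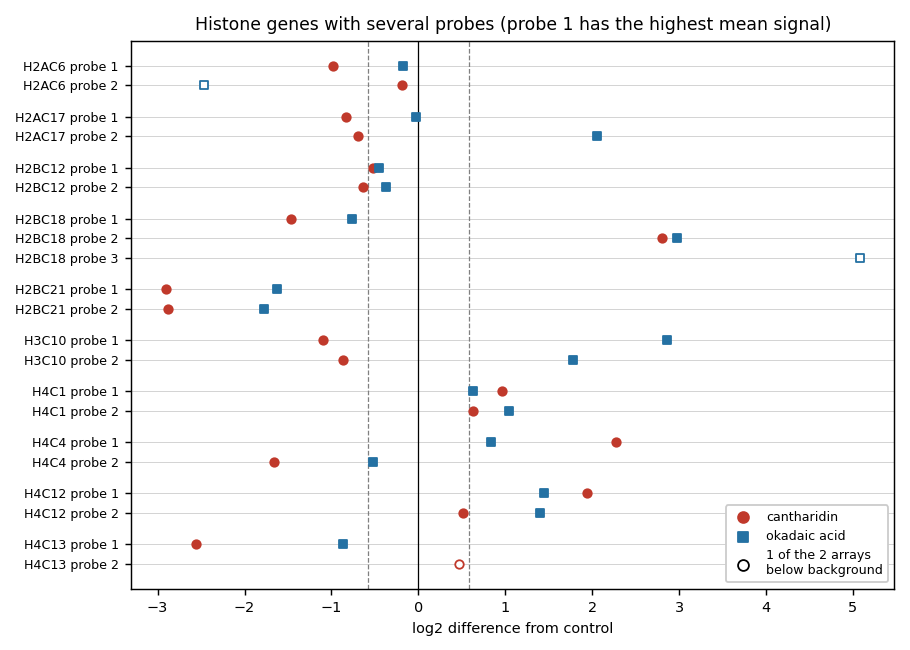
Log2 difference from control (x axis) under cantharidin and OA for each probe of the 10 histone genes with several probes (y axis, probe 1 having the highest mean signal), with dashed lines at 1.5-fold and open points where 1 of the 2 arrays was not well above background. The probes of H2BC21 coincide, whereas those of H2BC18, H4C4 and H4C13 lie on opposite sides of 0 under cantharidin. For H4C13 the point right of 0 is open.

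H2A and H2B genes often lie as neighbours that are transcribed away from each other, from starts close together. There were 11 such pairs among the members and unmatched genes, with 194 to 248 bases between their starts in RefSeq, and in 9 of them both genes were compared under both agents. The median gap within a pair was 0.73 (log2) under cantharidin and 0.39 under OA. H2AC20 and H2BC21, 236 bases apart, fell alike under cantharidin, at -3.16 and -2.90, but went apart under OA, at 1.11 and -1.62. H2AC13 and H2BC13, 244 bases apart, differed under OA too, at 2.08 and -0.23. In H2AC25 and H2BC26, 230 bases apart, the genes stayed close under both agents, at -1.35 and -1.15 under cantharidin and 0.48 and 0.25 under OA. H2AC15 and H2BC15 had the shortest distance, 194 bases, and went apart under cantharidin, at -0.60 and 0.72. These H2BC15 and H2AC15 values are of 1 probe each.

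**Figure D4:**
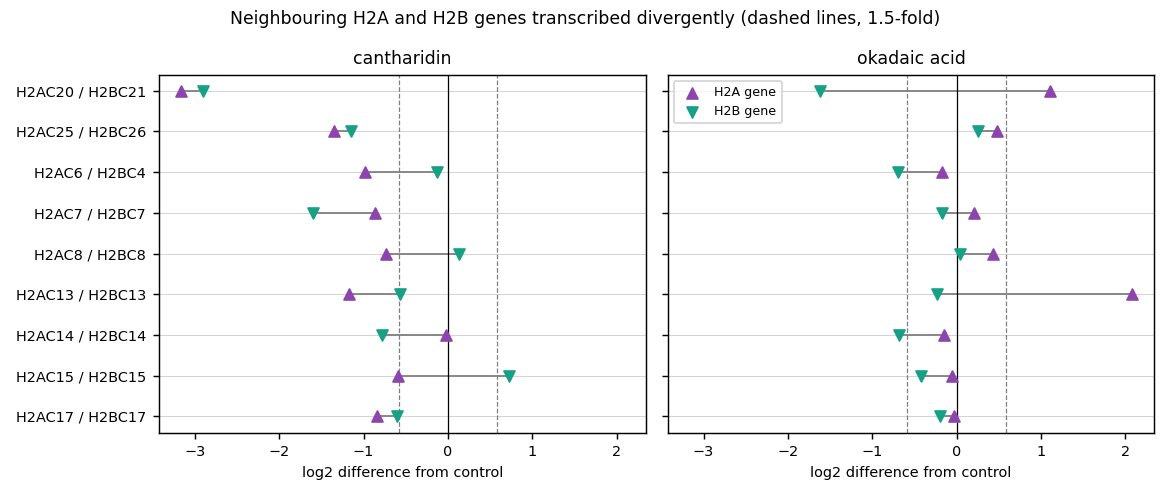
Log2 difference from control (x axis) of the H2A and the H2B gene of each of 9 neighbouring pairs (y axis) under cantharidin (left) and OA (right), with grey lines joining a pair and dashed lines at 1.5-fold. H2AC20 and H2BC21 sit together at the far left under cantharidin and on opposite sides of 0 under OA.

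Genes of the machinery that makes and handles these histones were read from fixed lists. Of 24 genes for stem-loop binding and 3′ processing, 21 were compared. Under cantharidin 7 rose (33.3%) and 6 fell (28.6%), with a median of -0.12. Under OA 7 rose (33.3%) and 5 fell (23.8%), with a median of 0.27. Over all genes compared, 27.5% rose and 34.1% fell under cantharidin, and 28.1% rose and 28.8% fell under OA. The shares of this list were thus near those of all genes. SLBP, which binds the histone stem-loop, had intensities of 7014 (control), 3434 (cantharidin) and 9351 (OA), a fall of 0.89 (log2) under cantharidin and a difference of 0.16 under OA. CASP8AP2, a protein of the nuclear bodies in which histone genes are transcribed, read 299, 75.9 and 134, with differences of -1.84 and -1.42. NPAT, which drives histone transcription from the same bodies, was well above background on the OA array alone, at 85.8, and there at least 2.05-fold higher than control. SRRT, a partner of the cap-binding complex, rose under both agents (2.24 and 2.76), and LSM4, a subunit of RNA decay and splicing rings, fell under both (-2.95 and -2.49). The cleavage factor genes CPSF3 (-2.23) and CSTF2T (-1.53) fell under cantharidin. Under OA CPSF3 was 2.00-fold lower and CSTF2T differed by 0.16. CDC73 was at least 2.13-fold lower under cantharidin. ZNF473, which acts in histone 3′ end processing, was higher by at least 2.70-fold under OA and CRAMP1 by at least 3.35-fold, both from signals below detection in control, and both were higher under cantharidin too, CRAMP1 by at least 1.59-fold. TUT7 was higher by at least 2.11-fold under cantharidin. Histone chaperones and importers, which carry new histones to DNA, had 13 fallen and 5 risen of 27 under cantharidin (median -0.58), and 11 fallen and 8 risen of 26 under OA (median -0.37). CHAF1A, a subunit of the CAF-1 complex that deposits new H3 and H4 at replication forks, read 1464, 321 and 1104, with differences of -2.05 and -0.66. Its cantharidin difference ran from -2.19 to -0.55 over the processing settings, at its smallest short of 1.5-fold. NASP, which holds soluble H3 and H4, had a difference of -0.03 under cantharidin and rose by 0.74 under OA. CHAF1B, another CAF-1 subunit, fell under both agents (-1.04 and -1.14), and ASF1B, which hands H3 and H4 to CAF-1, fell under cantharidin (-0.98, with -0.50 under OA). Other large falls were those of HJURP (-3.78 and -1.43), SUPT16H (-2.79 and -0.90), NAP1L1 (-2.60 and -1.50), MMS22L (-2.24 and -1.46), MCM2 (-1.36 and -2.04) and RBBP4 (-0.90 and -1.50). SPTY2D1 (3.01 and 3.51) and TSPYL2 (1.93 and 1.53) rose under both agents, and ASF1A rose under OA (0.96, with -0.21 under cantharidin). UBN2 was higher by at least 11.6-fold under OA and 2.57-fold under cantharidin, and IPO9 by at least 2.04-fold under cantharidin.

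Replacement and variant histones are made outside S phase too, mostly from polyadenylated mRNA. Of 11 replacement and variant histones compared, 4 fell and 2 rose under cantharidin (median -0.35). Under OA 3 fell and 0 rose (median 0.06). The shares fallen, 36.4% and 27.3%, were near the 34.1% and 28.8% of all genes compared, of which 27.5% and 28.1% rose. H3-3A, which encodes the replacement form H3.3, read 79193, 46902 and 108180, with differences of -0.62 and 0.19. Its OA difference ran from -0.54 to 0.45 over the processing settings. H3-3B (-0.35 and 0.26), H2AZ1 (0.06 and 0.16) and H2AX (0.23 and -0.12) stayed within 1.5-fold. H2AZ2 (-2.17 and -1.14) and MACROH2A2 (-2.67 and -2.24) fell under both agents, and H1-10 (0.71 and 0.32) and H2AJ (0.62 and 0.06) rose under cantharidin. Across settings the cantharidin difference ran from 0.56 to 0.78 for H1-10 and from 0.49 to 1.34 for H2AJ. Both were short of 1.5-fold at the low end, and H2AJ ran from -0.70 to 0.32 under OA. CENPA, the centromere form of H3, fell under both agents, reading 1638, 265 and 99.3 (-2.49 and -4.30). Of 17 genes of the DNA synthesis phase, 15 fell and 0 rose under cantharidin (median -2.42), and 11 fell and 1 rose under OA (median -2.12), whereas the histone medians were -0.61 and 0.11. RRM2, a subunit of the enzyme that makes deoxynucleotides, read 1539, 61.6 and 36.7, a fall of 22.7-fold under cantharidin and of at least 31.6-fold under OA. CCNA2, which encodes the S phase cyclin A2, read 1929, 77.8 and 157, with differences of -4.49 and -3.87. TYMS (-4.00 and -4.09) and MCM5 (-2.42 and -2.91) fell too, and E2F1 was lower by at least 21.3-fold under cantharidin and fell by 2.74 under OA. CCNE1, which encodes cyclin E1 and acts at S phase entry, had a difference of -0.42 under cantharidin and was the S phase gene that rose past 1.5-fold under OA, by 1.33. Under OA 4 of the 17 S phase genes, CCNE1 among them, had positive differences, and 13 had negative ones. These medians are over lists chosen with earlier results known, with 1 array a group, and the part of a change in the share of S phase cells in the histone values was not tested.

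**Figure D5:**
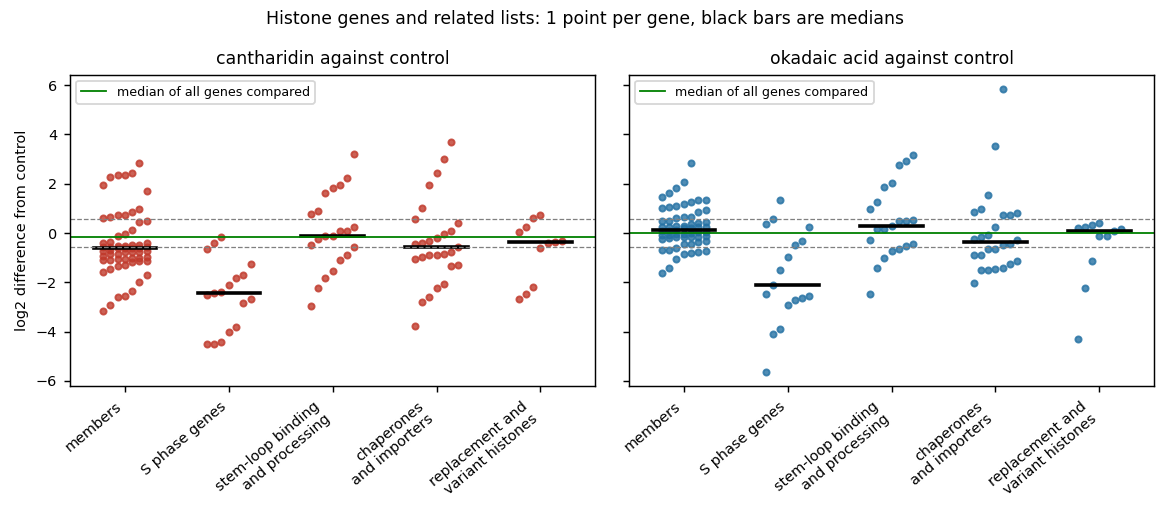
Log2 difference from control (y axis) of each compared histone gene and of each gene of the related lists (x axis) under cantharidin (left) and OA (right), with black bars for list medians, a green line for the median of all genes compared and dashed lines at 1.5-fold. S phase genes have medians of -2.42 and -2.12, below the histone medians of -0.61 and 0.11 in the same panels.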

How the data were processed

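RNA of 3 groups of PANC-1 cells (control, cantharidin and OA, taken from the sample titles) was measured on 3 Agilent 1-colour arrays. The authors deposited 1 scanner file per array, with spot intensity values from Feature Extraction 11.0.1.1 that per the file headers were background-subtracted and detrended within each array and not scaled between arrays. Deposited flags mark outlier and saturated spots and detection over background. A further table that the authors deposited holds normalized log2 values made in an unstated way, and was used as an alternative. The 3 arrays shared 1 slide and 1 scan, so position on the slide and group cannot be told apart.

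Log2 intensity was averaged over unflagged spots of a probe, and the array's 75th percentile was subtracted. Probe accessions were matched without version to RefSeq (GRCh38.p14). The array annotation was made on hg19, so the match gave names only. A gene was read by its probe with the highest mean signal, compared where either of the 2 arrays detected it well above background, and called at 1.5-fold, the threshold of the study's own array comparison. Where 1 array was dim, "at least" folds compare the bright signal with whichever is higher, the dim signal or the lowest detected one of that array. No histone probe was saturated. No p-value was computed, and 3 arrays limit the precision of each value.

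Members and lists were chosen with earlier results of these data known. Named genes followed a rule: per agent and direction the 8 members changed most, members with opposite directions, the 6 brightest, the 5 with the largest difference each way between agents, those with known polyadenylated forms, those with probes in opposite directions, and set list genes with at most 4 per list, agent and direction. The remaining members were named to account for every gene. List genes UBN1, SPT2, H3-5, H2AB1, H4-16, H2AW, H2BU1 and H3-7 had no matched probe. Of the list genes that the rule names, 1 is not reported here. Of 7 histone genes outside the naming rule, 3 were read, and of these H3-4 had differences of -0.47 and 0.29, H1-7 of -1.02 and 0.49, and H1-8 was at least 1.97-fold higher under cantharidin. Alternatives were normexp background correction (offset 50) on median spot signals, median scaling, scaling to the 75th percentile of probes detected on all arrays, no filter, genes detected on all 3 arrays alone, quantile normalization, no scaling, dim signals set to the array's lowest detected signal, the deposited table, a 2-fold threshold, the median over probes, and probes in place of genes. Members with 1 probe were added as an alternative after the data were seen. The calling script was tested on simulated data. Python 3.11.15 (numpy 2.4.6, pandas 2.3.3, matplotlib 3.10.9) and R 4.3.3 (limma 3.58.1) were used.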

Additional observations from a re-analysis of the deposited data

Results flagged for a closer look

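In 6 of the 61 histone genes compared under both agents the difference from control was past 1.5-fold in opposite directions under the agents, lower under cantharidin and higher under OA, with 1 array a group, so that the difference between the agents was not tested. Over all genes, 581 of 16049 were past 1.5-fold in opposite directions, in either order, and the comparisons share the control array, so nothing is read from the count of histone genes. H2AC13, an H2A gene on chromosome 6, differed by -1.18 (log2) under cantharidin and by 2.08 under OA. H2AC16, another H2A gene of that chromosome, differed by -1.13 and 1.82. H2AC20, on chromosome 1, differed by -3.16 and 1.11. Among H3 genes, H3C10 differed by -1.09 and 2.86, H3C2 by -1.29 and 1.28, and H3C7 by -1.04 and 0.66. Across processing settings the OA difference of H3C7 ran from 0.54 to 0.92, short of 1.5-fold at the low end. The intensities of H2AC13, H2AC16 and H2AC20 on the cantharidin array lay between 68.3 and 72.9, where replicate spots varied more than in brighter ranges.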

How the results depend on the processing

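Of the counts and medians of all histone genes together, 104 values under other settings stayed near the main one and 10 moved further. Staying near meant within 1.5 times the main count or within the spot noise of the main median. Of the other values followed under these settings, 1224 stayed, 728 moved and 6 reversed. With a 2-fold threshold, 7 histone genes rose and 19 fell under cantharidin, 3 fell under OA, and 19 were higher under OA than under cantharidin. Without scaling, 4 fell under OA, and the medians were -0.75 under cantharidin, 0.37 under OA and 1.096 between OA and cantharidin. With median scaling the last pair became -0.0106 and 0.55, so the direction of the small OA median depended on scaling. Scalings and filters moved the median of all genes from -0.30 to -0.09 under cantharidin, from -0.11 to 0.26 under OA and from -0.02 to 0.52 between the agents. Relative to all genes, the histone median lay from -0.50 to -0.36, from 0.07 to 0.20 and from 0.45 to 0.67. Counts ranged from 7 to 15 risen and 19 to 41 fallen under cantharidin, from 12 to 23 and 3 to 12 under OA, and from 19 to 42 and 7 to 10 between the agents. With the median over probes, H2BC18 turned to 2.12 under cantharidin and 2.83 under OA, and H2AC6 to -0.74 between the agents. With dim signals set to the array's lowest detected signal, H1-1 turned to 0.063 and H2AC1 to 0.10 under OA, and H4C7 to 0.0024 between the agents. The median over probes brings in the other probes of H2BC18 and H2AC6, which differed from the probe with the highest mean signal. Raising dim signals to the lowest detected one replaces those of H1-1, H2AC1 and H4C7. Why the probes of a gene differed was not tested. Family medians near 0 also changed sign, H1 under OA to -0.03 with median scaling and H2B under OA to 0.02 without scaling. The H4 median under cantharidin ran from 0.71 with normexp to 1.99 in the deposited table. Leaving out a replicate was not possible with 1 array a group. No paired analysis was possible because each group had 1 array.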
